A study of Mus musculus with 6 samples.

Results

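The claudins and the other proteins of the tight junction were followed in whole lung of male mice aged 8 weeks. The members were chosen by gene name on the array, not by any measured difference: the claudins and claudin-domain genes (Cldn, Cldnd), occludin and the MARVEL-domain genes (Ocln, Marveld), the junctional adhesion molecules (F11r, Jam), the zonula occludens, cingulin and MAGI scaffolds (Tjp, Cgn, Cgnl1, Mpdz, Magi), the polarity genes (Pard3, Pard6, Crb3, Mpp5) and the angiomotins (Amot, Amotl). The rule found 49 genes with 84 probes among 27656 genes on the array. For 47 of them the brightest probe passed the scanner's test of signal against background on 3 or more of the 6 arrays, and these were tested among 20232 genes. The other members, Cldn16 and Cldn17, fell short of that test on all 6 arrays.

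The study asked what the loss of Nogo does to the lung, under a title that names asthma. Untreated wild-type mice (3 lungs, numbered 11, 12 and 13 in the labels) were set against Nogo-A/B knockout mice (3 lungs, numbered 1, 11 and 12). Nogo-A and Nogo-B are the long proteins made from the reticulon gene Rtn4, and the labels give no strain, no line and no Cre, so it is not known from them whether the wild types were littermates. The design calls the 3 lungs of a group individual biological replicates. One lung RNA was hybridised in 1 colour to each array of 60-base probes.

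Tight junctions seal the space between neighbouring epithelial or endothelial cells. Claudins span the membrane and set which ions and solutes pass between cells, occludin and the MARVEL proteins shape the strands and the corners where 3 cells meet, and scaffolds such as ZO-1 (Tjp1) tie the strands to actin. Polarity complexes place the junction near the apical surface. In lung, Cldn18 is a main claudin of the alveolar epithelium, Cldn5 is the main claudin of endothelium, and Cldn3, Cldn4 and Cldn7 are epithelial.

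The sequences below are those on which the main observations rest: the probe that carried the largest difference, and the regions around the transcription start of that gene and of Cldn1 and Cldn4, which were both highest on 1 knockout array. The Cldn22 probe lies at chr8:46604403-46604462 on the plus strand of build mm7. Read from its first base, its first stop codon is at bases 49 to 51 and is shown in capitals. Its exon was not looked up, since no annotation of that build was used here. The promoter windows are from RefSeq (GRCm38.p6), run from 250 bases before to 50 bases after the annotated start, and lie at chr8:47824232-47824531 on the plus strand (Cldn22), chr16:26371790-26372089 on the minus strand (Cldn1) and chr5:134946885-134947184 on the minus strand (Cldn4). Capitals in the promoters mark every match, on either strand, to the motifs searched.
Cldn22 probe: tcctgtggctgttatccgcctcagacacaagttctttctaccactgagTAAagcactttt
Cldn22 promoter: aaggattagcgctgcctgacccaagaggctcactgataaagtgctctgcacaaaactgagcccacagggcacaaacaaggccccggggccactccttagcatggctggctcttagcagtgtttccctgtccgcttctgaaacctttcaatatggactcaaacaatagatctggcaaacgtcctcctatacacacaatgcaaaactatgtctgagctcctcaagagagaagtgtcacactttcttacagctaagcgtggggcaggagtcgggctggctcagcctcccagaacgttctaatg
Cldn1 promoter: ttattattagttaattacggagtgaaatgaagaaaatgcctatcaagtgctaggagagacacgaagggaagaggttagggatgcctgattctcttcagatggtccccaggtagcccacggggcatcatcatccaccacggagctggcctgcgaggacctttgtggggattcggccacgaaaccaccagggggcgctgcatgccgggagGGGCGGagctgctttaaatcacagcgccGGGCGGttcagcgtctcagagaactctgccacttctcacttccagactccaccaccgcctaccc
Cldn4 promoter: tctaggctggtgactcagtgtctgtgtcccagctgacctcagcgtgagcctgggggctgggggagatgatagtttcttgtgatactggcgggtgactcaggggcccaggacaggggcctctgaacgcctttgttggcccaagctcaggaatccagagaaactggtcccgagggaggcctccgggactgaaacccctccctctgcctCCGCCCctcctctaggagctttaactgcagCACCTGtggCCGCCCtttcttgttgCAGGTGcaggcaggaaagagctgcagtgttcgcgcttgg

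The motifs were a GC box (GGGCGG), an E-box read by Snail and Zeb proteins (CACCTG), the core promoter box TATAAA, a forkhead motif (TGTTTAC) and a grainyhead-like core (AACCGG), and no 2 matches overlapped in the windows shown. The Cldn1 window held 2 GC boxes and no other match. The Cldn4 window held 2 GC boxes and 2 E-boxes, and the Cldn22 window held none of the 5 motifs. Over all 32851 promoter windows of this length, 35.7% held the GC box, 20.2% the E-box, 13.6% the core promoter box, 3.65% the forkhead motif and 6.83% the grainyhead-like core. Of the 47 members, 35 matched a promoter entry by symbol, and the GC box stood in 26 of them, the E-box in 15, the grainyhead-like core in 6, the core promoter box in 3 and the forkhead motif in 0. A member counted once if any of its windows held the motif, while the shares above count each window. The member counts and those shares are therefore in different units and were not compared.

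Values are log2 of the processed signal relative to the 75th percentile of the array, so 1 unit is a 2-fold difference, and a level is comparable between arrays for 1 probe but not between probes. An array measured from 68.9% to 78.0% of its probes above background, and the number of arrays limits the precision. Scanning took 2 days: the first held the arrays of wild type 13 with knockouts 1 and 11, the second those of wild types 11 and 12 with knockout 12. The day 2 arrays shared a slide. Of the day 1 arrays, wild type 13 and knockout 1 shared another slide, and knockout 11 was the only array on its own. Rtn4, read by its brightest probe, was 1.69, 1.62 and 2.36 in wild types 11, 12 and 13 against 1.1, -0.71 and -1.79 in knockouts 1, 11 and 12. All 3 knockout arrays were below all 3 wild types (difference -2.36, SE 0.72, unadjusted p = 0.0163, limma), and the probe was well above background on all 6 arrays. Knockout 1 was nearer to the wild types than to the other knockouts, and whether the probe lies in the deleted part of the gene was not looked up. The lung's own markers were well measured: 13 of 13 endothelial, 8 of 8 alveolar type 1 and 11 of 12 listed epithelial names were kept. The epithelial names include Tacstd1, an older name of Epcam, which is listed as well. Less RNA per cell and fewer cells of a type cannot be told apart in whole lung.

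In the knockout most of the tight junction set stayed within the spread between arrays. Cldn22 had a lower signal in the knockout, and no other member had an unadjusted p under 0.05. Of the 47 members, 23 had a lower and 24 a higher mean in the knockout, and their median log2 difference was 0.00, against 0.01 over all genes tested. At an adjusted p under 0.05 (limma, Benjamini-Hochberg over 20232 genes) 0 members and 0% of all genes were called. At an unadjusted p under 0.05, 1 member was lower and 0 were higher, where 0.647% of all genes were lower and 0.292% higher. With scan day in the model the count was again 1 lower and 0 higher, where 1.31% and 0.786% of all genes were. The count was 0 when a probe had to be well above background on all 6 arrays, a filter that leaves Cldn22 out. The median absolute difference was 0.09 among members and 0.15 over all genes.

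The intervals say how large a change these arrays could have missed. In 35 of 47 members (74.5%, against 68.0% of all genes) the 95% confidence interval of the difference lay within a 2-fold change either way, and in 12 members (25.5%, against 23.3%) within a 1.5-fold change. Only Cldn22 had a log2 difference beyond 1 in size, and the largest among the other 46 members was 0.82. The Cldn22 probe was well above background on only 1 knockout array, so its difference is not read as a fold change. Groups did not overlap for 3 members. Cldn22 and Magi3 were lower, where 1.60% of all genes were, and Cldn3 was higher, where 2.40% of all genes were. Cldn22 passed the filter on dim probes through the wild-type arrays alone, so its place in this count is not support for a change.

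**Figure D1:**
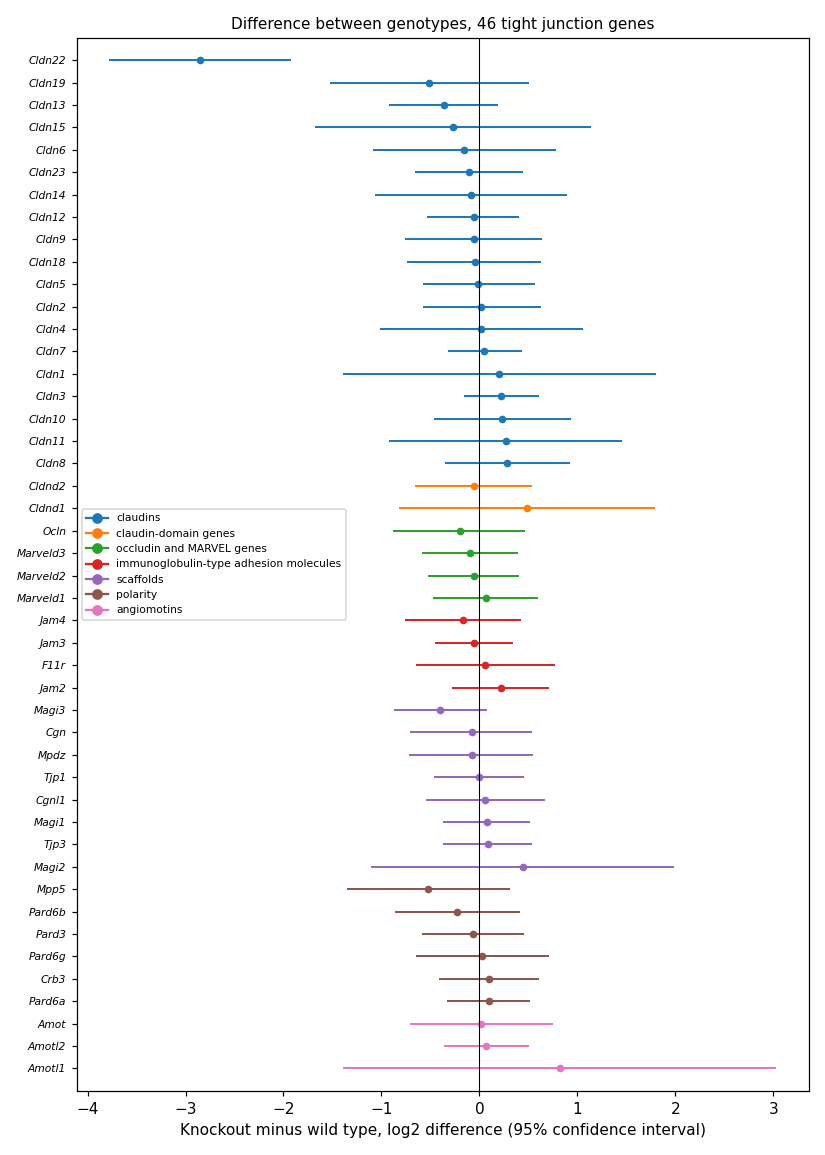
Difference between knockout and wild type for 46 of the 47 tested genes, as the mean log2 difference (points) with its 95% confidence interval (lines), coloured by role. Cldn22 lies at -2.85 with an interval from -3.77 to -1.93, while the interval of every other gene shown includes 0.

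Cldn22 carried the largest difference. Its log2 signal was -3.11, -3.83 and -3.29 in wild types 11, 12 and 13, and -5.68, -6.14 and -6.97 in knockouts 1, 11 and 12. Every knockout array was below every wild type by more than either group's range, from a mean of -3.41 ± 0.38 (SD, n = 3) to -6.26 ± 0.65 (SD, n = 3). The difference of -2.85 (SE 0.38, unadjusted p = 2.48e-04, adjusted p = 0.9998) did not pass after adjustment. The probe was well above background on all 3 wild-type arrays but on only 1 knockout array, knockout 1. The wild-type arrays alone carried it past the filter on dim probes, and knockouts 11 and 12 have no level above background, so no fold change is given. The size depended on how background was treated: it was -1.28 with the normexp correction and -1.41 in the authors' deposited log2 values. Blocking on scan day gave -3.06, and the days taken singly gave -2.62 (day 1) and -3.50 (day 2). The array has 1 probe for this gene.

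Markers of airway goblet and secretory cells were lower in the knockout too, by very unequal amounts. All 8 measured markers had a lower mean, with a median difference of -3.29, 5 at an unadjusted p under 0.05 and 5 with groups that did not overlap. The smallest difference was that of Spdef, at -0.11 (SE 0.19). The 12 names listed include Plunc and Lplunc1, older names of Bpifa1 and Bpifb1. The median of the list was 1.14, 0.29 and 1.59 in wild types 11, 12 and 13, and -4.63, -1.88 and -2.83 in knockouts 1, 11 and 12. Bpifa1, a secreted airway defence protein, differed by -9.83 (SE 0.70, adjusted p = 0.0662), and Tff2, a trefoil peptide, by -3.71 (SE 0.78, unadjusted p = 0.00293). The order of the knockout arrays differed: the markers were lowest in knockout 1, where Cldn22 was the highest of the 3 knockouts. Their part in the Cldn22 difference was not tested.

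**Figure D2:**
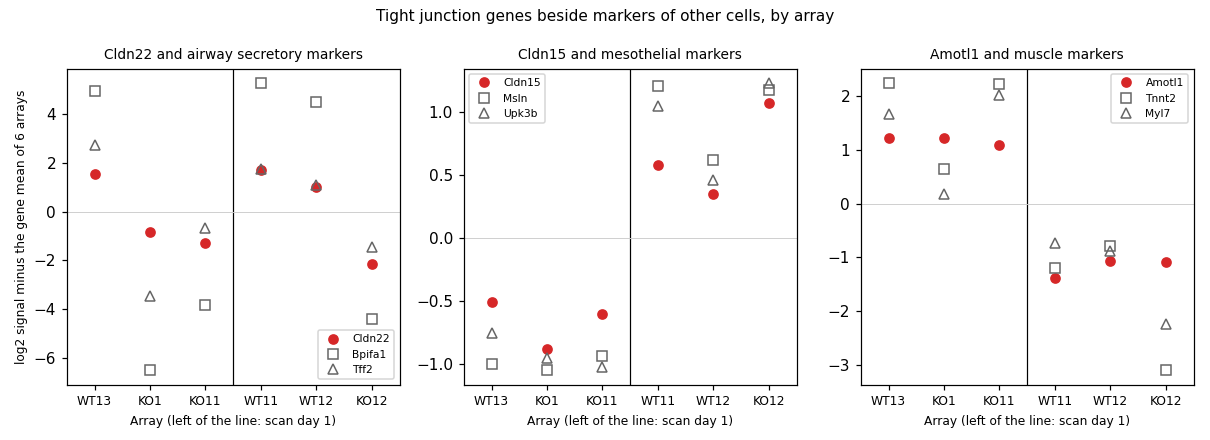
Log2 signal minus the gene's mean over 6 arrays, by array, for a tight junction gene (filled red circles) and 2 marker genes (open grey symbols) in each of 3 panels, with scan day 1 left of the vertical line; the vertical scales differ. Cldn22, Bpifa1 and Tff2 are low on the knockout arrays, while Cldn15 with Msln and Upk3b is high, and Amotl1 with Tnnt2 and Myl7 low, on the arrays of day 2.

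Among the epithelial claudins of the distal lung, levels were close between genotypes. Cldn18, needed for the alveolar barrier, was 4.71, 4.43 and 4.08 in wild types 11, 12 and 13 against 4.48, 3.91 and 4.67 in knockouts 1, 11 and 12. The groups overlapped (difference -0.05, 95% interval -0.73 to 0.62). Cldn7 was 3.07, 3.13 and 3.15 in wild type and 3.17, 3.08 and 3.26 in knockout, and was among the steadiest members (difference 0.05, interval -0.31 to 0.42). Cldn3 was 3.13, 3.13 and 3.07 in wild type and 3.30, 3.47 and 3.23 in knockout. All 3 knockouts were higher, but the difference of 0.22 (SE 0.15, unadjusted p = 0.199, adjusted p = 0.9998) did not pass, and within day 2 it was 0.09.

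The endothelial claudin Cldn5 was 6.05, 5.85 and 5.67 in wild types 11, 12 and 13, and 5.79, 6.22 and 5.55 in knockouts 1, 11 and 12. Its groups overlapped, with a difference of -0.01 (interval -0.57 to 0.56). Endothelial markers had a median difference of 0.13, with 11 of 13 higher and 0 at an unadjusted p under 0.05, and Emcn and Ramp2 had the smallest p (differences 0.19 and 0.17).

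For Cldn1, Cldn4 and Cldn10 knockout 12 stood apart from the other knockouts. These genes are described for that array after their values were seen, so the values without it and within day 2, where it is the only knockout, are given with no test. Cldn1, a barrier-forming claudin, was -3.13, -3.12 and -3.06 in wild types 11, 12 and 13, and -3.45, -3.90 and -1.34 in knockouts 1, 11 and 12. Knockout 12 was above all other arrays, and the other knockouts were below every wild type. The difference was 0.20 (SE 0.65, interval -1.38 to 1.79); without knockout 12 it turned to -0.58, and within day 2 it was 1.78. The gene's second probe was also highest in knockout 12, at -3.89 where the other 5 arrays lay between -4.68 and -4.30. On that probe knockout 11, at -4.41, was not below the wild types, which were -4.53, -4.30 and -4.48, so it did not repeat the low value of that lung.

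Cldn4 was likewise highest on knockout 12 and lowest on the other knockouts. Its values were -5.72, -5.76 and -5.90 in wild types 11, 12 and 13, and -6.33, -6.19 and -4.79 in knockouts 1, 11 and 12. Its difference of 0.02 (SE 0.42) became -0.47 without knockout 12 and 0.95 within day 2. Cldn10, found in club cells of the airway, was 0.58, 0.86 and 0.91 in wild type, and 0.64, 0.86 and 1.57 in knockout. Knockout 12 was again the highest array, and the difference of 0.23 (SE 0.28, unadjusted p = 0.434) became 0.84 within day 2. All 6 measured club cell markers were higher in the knockout, with a median difference of 0.32 and 0 at an unadjusted p under 0.05. By array that list stood highest on knockout 12, at a median of 7.29. The part of these markers was not tested.

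**Figure D3:**
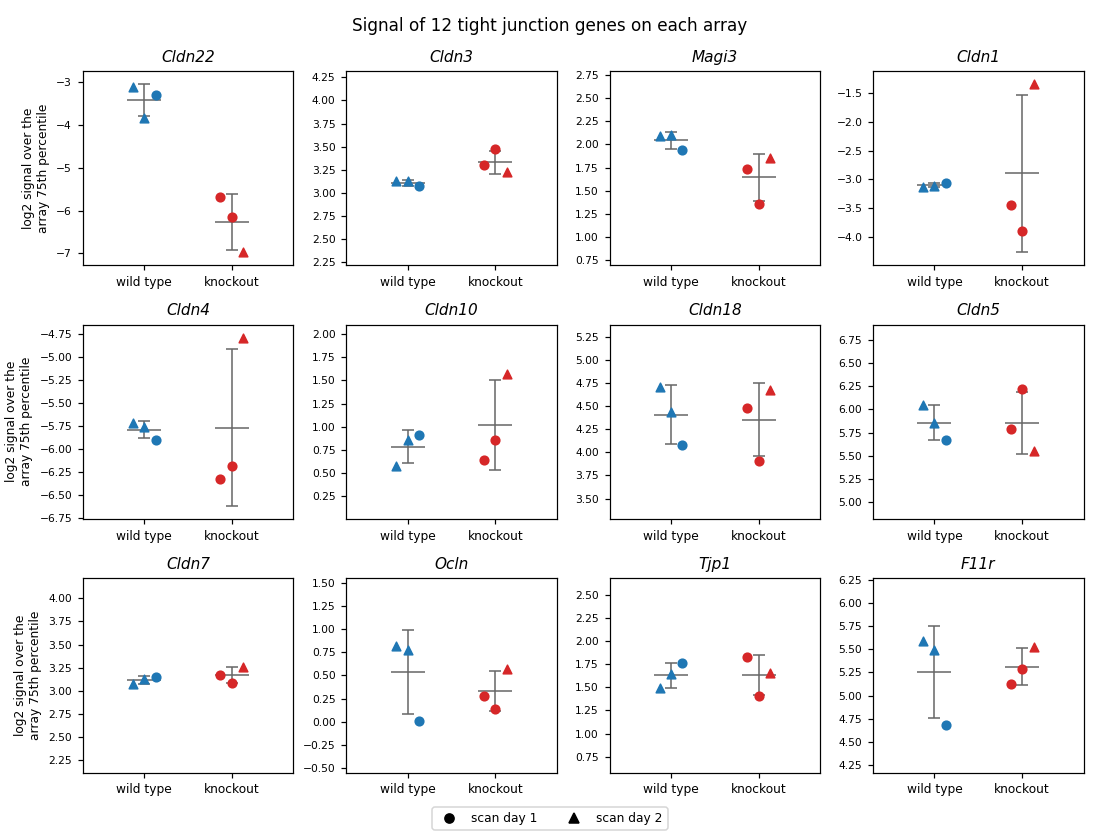
Log2 signal over the array's 75th percentile for 12 genes on each array, in wild type (blue) and knockout (red); circles are scan day 1, triangles scan day 2, and grey bars give the group mean and SD (n = 3); the vertical scales differ in their range. Cldn22 separates the groups, while the red triangle of knockout 12 stands above all other arrays for Cldn1, Cldn4 and Cldn10.

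Of the 19 claudins tested, 9 (47.4%) were highest on knockout 12 and 10 on another array, while 8 (42.1%) were lowest on knockout 11. Over all genes tested, 24.5% were highest on knockout 12 and 23.1% lowest on knockout 11. Within day 1, 16 of 19 claudins were lower in the knockouts, where 54.1% of all genes were, and within day 2, 15 of 19 were higher in knockout 12, where 59.5% of all genes were. The median difference of the claudins was -0.23 within day 1 and 0.28 within day 2. Some other lists had like medians, -0.25 and 0.26 for desmosome genes and -0.41 and 0.52 for ciliated cell markers. The ciliated list median was highest on knockout 12, at 0.89. Other lists did not share the pattern. The medians were 0.13 and -0.02 for other tight junction and tricellular genes, 0.12 and 0.09 for adherens junction genes and 0.16 and 0.09 for connexins. The claudins were not tested against other genes, and the part of the ciliated cell markers was not tested. Over the 47 members, only 12 had the same sign on both days, 6 lower and 6 higher. Each within-day value rests on a single array in 1 of the groups, so its error comes from the fit's shared estimate of spread.

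The other claudins did not pass. Cldn13, a rodent claudin, was -5.26, -4.82 and -5.29 in wild types 11, 12 and 13, and -5.24, -5.76 and -5.46 in knockouts 1, 11 and 12, with a difference of -0.36 (SE 0.22, unadjusted p = 0.155). Cldn19, best known from kidney, was -4.76, -5.07 and -4.41 in wild type, and -4.67, -6.13 and -4.98 in knockout. Its difference of -0.51 (SE 0.42, unadjusted p = 0.262) owed most to knockout 11, which stood below the other 5 arrays. The dimmer second probe of Cldn19 gave -0.54, with all 3 knockouts below every wild type. That probe was well above background on only 2 wild-type arrays and 1 knockout array. Cldn8 was -3.26, -2.76 and -2.44 in wild type, and -2.47, -2.76 and -2.38 in knockout (difference 0.28, SE 0.26), so the groups overlapped. For the remaining claudins without individual values here (Cldn2, Cldn6, Cldn9, Cldn11, Cldn12, Cldn14 and Cldn23), differences ran from -0.16 (Cldn6) to 0.27 (Cldn11).

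Some of these are faint. Cldn11, the myelin claudin, was kept at the limit, well above background on 3 arrays, and Cldn2, Cldn6 and Cldn22 were so on 4. Cldn16 and Cldn17, just outside, were so on none. The remaining 43 members were well above background on all 6 arrays.

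Occludin and its relatives were close between genotypes. Ocln was 0.82, 0.77 and 0.01 in wild types 11, 12 and 13 against 0.28, 0.14 and 0.57 in knockouts 1, 11 and 12, a difference of -0.20 (SE 0.27, interval -0.87 to 0.46). The 3 day 2 arrays were the 3 highest, and blocking on scan day gave -0.01. Marveld2, the tricellulin of cell corners, was -0.30, -0.36 and -0.57 in wild type and -0.61, -0.56 and -0.23 in knockout, so again day 2 was higher in both genotypes (difference -0.06, SE 0.18). Marveld1 and Marveld3 differed by 0.07 and -0.10. The claudin-domain gene Cldnd1 was -0.25, -0.24 and 0.87 in wild type and 1.24, 1.02 and -0.42 in knockout, with day 1 high in both, and its difference of 0.49 (SE 0.53) became 0.04 with scan day as a block. Cldnd2 differed by -0.06.

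The immunoglobulin-type adhesion molecules of epithelium and endothelium did not differ beyond their spread. F11r, which is JAM-A, was 5.59, 5.49 and 4.68 in wild types 11, 12 and 13, and 5.12, 5.29 and 5.52 in knockouts 1, 11 and 12. Wild type 13 was the lowest array, and the difference was 0.06 (SE 0.29). Jam2 was 0.37, 0.32 and 0.62 in wild type and 0.79, 0.81 and 0.36 in knockout (difference 0.22, SE 0.20, unadjusted p = 0.316), and 0.10 with scan day as a block. Jam3 was 0.52, 0.34 and 0.55 in wild type and 0.40, 0.32 and 0.52 in knockout (difference -0.06, SE 0.16), with groups that overlapped. Jam4, now named Igsf5, differed by -0.17 (SE 0.24). Platelets also carry F11r. All 8 platelet markers were lower in the knockout, with a median of -0.82, 7 at an unadjusted p under 0.05 and 7 with groups apart, among them Ppbp (-0.83, unadjusted p = 0.00610).

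Zonula occludens scaffolds link claudins to actin. Tjp1 was 1.49, 1.64 and 1.76 in wild types 11, 12 and 13 against 1.83, 1.41 and 1.66 in knockouts 1, 11 and 12, a difference of 0.00 (interval -0.45 to 0.45). Tjp3 was 0.38, 0.49 and 0.83 in wild type and 0.72, 0.58 and 0.67 in knockout (difference 0.09, SE 0.18). In Tjp1 and Tjp3 the groups overlapped. Cgn, the junction plaque protein cingulin, was -0.32, -0.33 and -0.37 in wild type and -0.41, -0.89 and 0.02 in knockout. Its wild-type arrays lay close together while the knockouts spread to both sides (difference -0.08, SE 0.25). Cgnl1 and Mpdz differed by 0.06 and -0.08.

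Of the MAGI scaffolds, Magi3 came closest to the threshold. It was 2.09, 2.10 and 1.94 in wild types 11, 12 and 13 and 1.73, 1.36 and 1.85 in knockouts 1, 11 and 12. All 3 knockouts were lower, by -0.40 (SE 0.19, unadjusted p = 0.0810, adjusted p = 0.9998), or 76.0% of the wild type. The gene's other 2 probes gave 0.13 and -0.05, and the mean over its probes gave -0.10. With scan day as a block the brightest probe gave -0.32 and the other 2 gave -0.23 and -0.40. The agreement of the probes thus depended on the model. Magi1 was 2.16, 2.10 and 1.74 in wild type and 2.09, 2.02 and 2.12 in knockout (difference 0.08, SE 0.18), with overlapping groups. Magi2 was -2.54, -2.48 and -0.96 in wild type and -0.60, -1.50 and -2.57 in knockout, split by scan day and not by genotype (difference 0.44, SE 0.63; -0.07 with scan day as a block).

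The polarity genes did not pass either. Mpp5, now named Pals1, which joins Crumbs to its partners, was 1.66, 1.60 and 1.19 in wild types 11, 12 and 13 and 0.74, 0.51 and 1.65 in knockouts 1, 11 and 12. Knockouts 1 and 11 were below every wild type and knockout 12 was not: the difference of -0.52 (SE 0.34, unadjusted p = 0.174) was -0.86 without knockout 12 and 0.02 within day 2. The gene's second probe gave 0.24, with knockout 1 at 0.82 above every wild type, and the mean over both probes gave -0.14. With scan day as a block the brightest probe gave -0.27 and the second -0.21, so their agreement depended on the model. Pard6b was likewise low in knockouts 1 and 11, at 2.15, 2.15 and 1.84 in wild type and 1.63, 1.52 and 2.30 in knockout (difference -0.23, SE 0.26). Pard3 was 0.56, 0.72 and 0.78 in wild type and 0.71, 0.88 and 0.27 in knockout (difference -0.07, SE 0.21), and Crb3, an apical Crumbs protein, was 0.49, 0.52 and -0.01 in wild type and 0.54, 0.32 and 0.43 in knockout (difference 0.10, SE 0.21). Neither separated the groups. Pard6g was 0.54, 0.60 and 1.17 in wild type and 0.95, 1.08 and 0.38 in knockout (difference 0.03), and Pard6a differed by 0.10.

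The angiomotins bind polarity and Hippo pathway proteins at the junction. Amot was -0.35, -0.28 and -1.05 in wild types 11, 12 and 13 and -0.29, -0.96 and -0.38 in knockouts 1, 11 and 12 (difference 0.02, SE 0.30), and Amotl2 was 1.99, 1.96 and 1.79 in wild type and 1.88, 1.88 and 2.20 in knockout (difference 0.07, SE 0.17). In both the groups overlapped. Amotl1 was -3.07, -2.76 and -0.47 in wild type and -0.46, -0.60 and -2.77 in knockout. Its values fell into a high set on day 1 and a low set on day 2, each holding both genotypes, and the difference of 0.82 (SE 0.91) became 0.04 with scan day as a block.

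**Figure D4:**
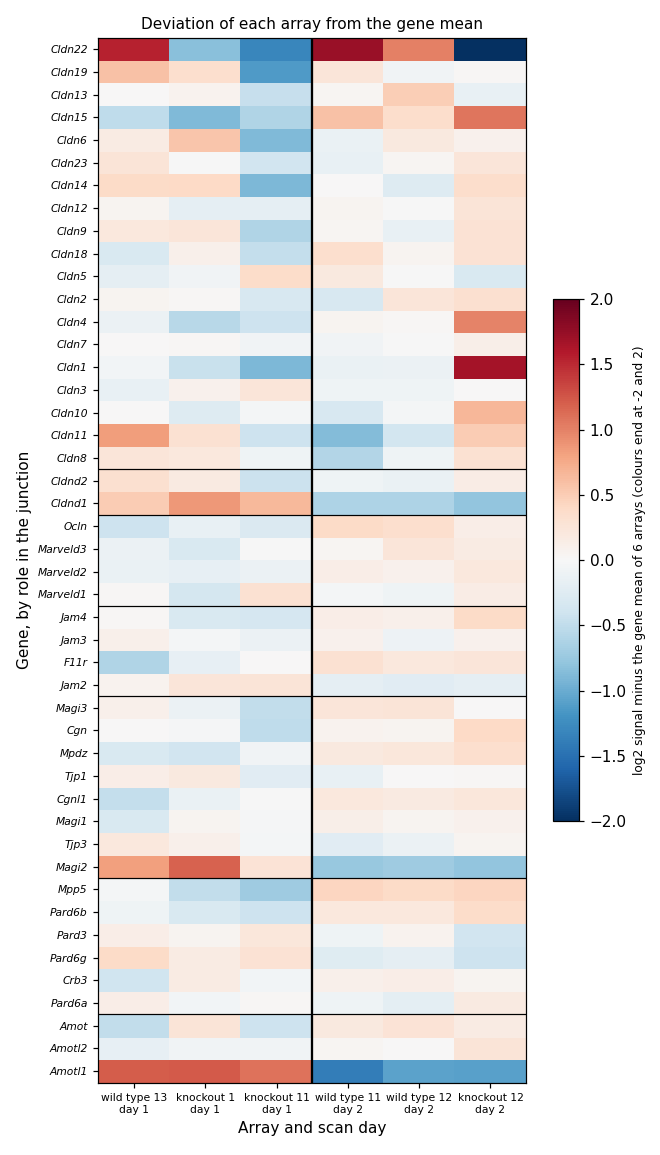
Log2 signal of each array minus the gene's mean over the 6 arrays, for 46 of the 47 genes in order of role, with arrays of scan day 1 left and of day 2 right of the vertical line; red is above the mean and blue below, and colours end at -2 and 2. Amotl1, Cldnd1 and Magi2 are red on day 1 and blue on day 2, Cldn15 is the opposite, and knockout 12 is the reddest of the 6 arrays for Cldn1, Cldn4 and Cldn10.

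Scan day separated more members than genotype did. With genotype in the model, Cldn15 was higher on day 2 at an adjusted p under 0.05, 1 of 47 members where 2.26% of all genes were, and Amotl1, Cldnd1, Magi2 and Pard6g were lower, 4 of 47 where 8.74% of all genes were. Both shares are near the background. Cldn15, a claudin that passes small cations, was 0.52, 0.29 and -0.57 in wild types 11, 12 and 13 and -0.94, -0.66 and 1.01 in knockouts 1, 11 and 12. The day 2 arrays were higher by 1.39 (SE 0.24, adjusted p = 0.0266). Amotl1 fell by 2.34 (SE 0.16, adjusted p = 0.00340), Magi2 by 1.53 (SE 0.27, adjusted p = 0.0281), Cldnd1 by 1.33 (SE 0.17, adjusted p = 0.0108) and Pard6g by 0.62 (SE 0.13, adjusted p = 0.0442). Mpp5, the next by p, was higher by 0.74 (SE 0.19, adjusted p = 0.0726).

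Among the 14 cell type lists, mesothelial and muscle markers had the largest median differences between scan days. Of 6 mesothelial markers 5 were higher on day 2 at an adjusted p under 0.05, with a median of 1.53 beside the 1.39 of Cldn15; Msln differed by 2.04 and Upk3b by 1.86. In the genotype comparison all 6 were lower, with a median of -0.52 (0.03 with scan day as a block) and 0 at an unadjusted p under 0.05, Krt19 (-0.46) and Wt1 (-0.62) first by p. Of 8 cardiac and skeletal muscle markers 4 were lower on day 2, with a median of -3.32, among them Tnnt2 (-3.89) and Myl7 (-2.91). By genotype 4 were lower and 4 higher (median 0.41, but -0.83 with scan day as a block), with 0 at an unadjusted p under 0.05. The 4 lower ones were those that were also lower on day 2. Tnnt3 differed by 2.45 (SE 2.70) and Acta1 by 1.98 (SE 2.34), and both differences rested on knockout 1. Tnnt3 was 5.65, -1.60 and -4.65 in knockouts 1, 11 and 12, and Acta1 was 6.26, -0.58 and -2.92. Other lists shifted less: of 10 fibroblast and smooth muscle markers, 3 were lower on day 2 at an adjusted p under 0.05, with a median of -0.61. The part of these lists in the members' values was not tested. Scaling matters for day: with the array median in place of the 75th percentile the median of all genes moved from 0.04 to 0.34, and 59.4% of genes called between days were higher on day 2, against 20.5% of calls here.

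Further probes of the same genes gave other differences between days than the brightest ones. Of the 79 member probes well above background on at least 3 arrays, 14 were lower on day 2 and 1 was higher at an adjusted p under 0.05, where 12.9% and 3.13% of all such probes were. The dimmer probe of Cgnl1 that ranked 3 in signal was -4.39, -4.23 and -1.56 in wild types 11, 12 and 13 and -1.42, -1.60 and -4.13 in knockouts 1, 11 and 12, a fall by 2.69 (SE 0.15, adjusted p = 0.00204). The brightest Cgnl1 probe, at 4.21, 4.19 and 3.52 in wild type and 3.87, 4.0 and 4.23 in knockout, differed by 0.49 (SE 0.16, adjusted p = 0.103) and did not pass. The differences of these probes of a single gene thus had opposite signs. The second probe of Mpp5 likewise fell by 1.34 (SE 0.20), where its brightest probe differed by 0.74 and did not pass. For Cgn the other 2 probes fell by 1.83 and 1.63, for Magi3 the other 2 by 1.08 and 1.06, and for Marveld1 the second fell by 1.15. By mm7 coordinates and strand, each falling probe named here lay upstream of its gene's brightest probe. For Cgnl1 it started at 71759825 against 71661408 on the minus strand. Other Cgnl1 probes, from 71664018 and 71676227, also lay upstream but differed by 0.84 and 0.36. In Amotl1 and Cldnd1 it was the brightest probe that fell, by 2.34 and 1.33. Their second probes lay upstream and fell by 0.59 and 0.87, which did not pass. The part of position was not tested. Between genotypes, without scan day in the model, 10 of the 21 members with several such probes had probes of opposite sign. There 1 probe of 79, that of Cldn22, had an unadjusted p under 0.05.

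Genes that work beside the tight junction gave the same picture, with 0 genes at an unadjusted p under 0.05 in any of the 6 lists. Among other tight junction and tricellular genes, 12 were lower and 16 higher (median 0.03), with Tjap1 at -0.29 and Wnk4 at 0.35. Among other polarity genes 13 were lower and 7 higher (median -0.04), with Prkci at -0.24 and Crb2 at -0.69. Adherens junction genes were split 9 to 10 (median 0.06), with Nectin4 at 0.63 and the actin linker Vcl at -0.29. Desmosome genes were lower in 9 and higher in 2 (median -0.11, 0.02 with scan day as a block), with plakoglobin (Jup) at 0.48, unadjusted p = 0.0534, and desmoplakin (Dsp) at -0.45. Connexins, which form gap junctions, were lower in 4 and higher in 8 (median 0.07), with Gjb5 at -0.74. Transcription factors and splicing factors that regulate epithelial junctions were lower in 8 and higher in 10 (median 0.02), with Foxa1 at -0.37 and Ovol1 at 0.24.

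Markers of other cell types are given here beside all genes, of which 0.647% were lower and 0.292% higher at an unadjusted p under 0.05 (limma). In the secretory and platelet lists described above, 5 of 8 and 7 of 8 markers were lower at that threshold. Epithelial markers had a median of -0.08 (8 lower, 3 higher, 0 at that threshold), with St14 at 0.25 and Krt19, counted among the mesothelial markers too, at -0.46. Alveolar type 1 markers had a median of 0.00 (Cav1 0.18, Pdpn -0.27), alveolar type 2 markers 0.05 (Sftpc 0.43, Sftpa1 0.28) and ciliated cell markers 0.02 (Spag6 0.35, Ccdc39 0.17), with 0 at an unadjusted p under 0.05. Fibroblast and smooth muscle markers had a median of 0.29, or 0.12 with scan day as a block (Col1a2 0.38, Pdgfrb 0.19), also with 0. Club cells were led by Cyp2f2 at 0.38 and Hp at 0.32. Leukocyte markers had a median of 0.07, with 1 higher at an unadjusted p under 0.05, Cd3d (0.49). Basal cell markers had a median of -0.22, with 1 lower at that threshold, Krt15 (-1.46, unadjusted p = 0.0150), and Krt5 at -0.97. All 11 neutrophil markers were lower, with a median of -1.13 and 3 at that threshold, Ltf (-0.87) and Mmp9 (-1.77) first, but the median was 0.28 within day 1 and -2.78 within day 2.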

How the data were processed

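RNA from 6 lungs was amplified with Cy3 nucleotides and read on single-colour Agilent mouse arrays, as the labels' protocols state. The deposited scanner files hold spot intensity; per the file headers the software was Feature Extraction 9.5.1.1, where the submitters' processing notes name 9.1. The processed intensity was background-subtracted and detrended within an array and not scaled between arrays, per the file headers. The authors' deposited table holds log2 values, all with a median of 8.09; its scale was read from the values, and the authors' scaling is not stated in the sources used here.

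Outlier spots were left out, spots of a probe averaged, 30 flagged probes dropped, and log2 values taken relative to each array's 75th percentile. A gene was its probe with the highest mean, kept if well above background on 3 or more arrays. Names came from RefSeq for 32709 of 41144 probes, while members were found by the array's own gene name, so that genes listed under other names, such as Esam1, are not members. Tests were two-sided and used lmFit and eBayes of limma 3.58.1 (R 4.3.3) with Benjamini-Hochberg adjustment over all genes; the script was tested on simulated data. Individual values are given for the 12 members with the smallest p by genotype, the 6 by scan day and a list of main junction genes, and of every other list the counts, the median and up to 2 genes with the smallest p. Some genes that these rules name are not reported here. The muscle and mesothelial markers named by scan day were chosen by their p between days. The members, lists and rules were chosen with earlier results of these data known. Alternatives covered scaling, background correction, the authors' values, filters, probes, scan day, slide, the replicate block, variance model, array weights and leaving out each array.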

Additional observations from a re-analysis of the deposited data

How the results depend on the processing

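Members past an adjusted p of 0.05 numbered 0 under all 20 alternatives, and the median difference of the members lay between -0.16 (day 1 alone) and 0.11 (without knockout 11). Over all genes the count past that threshold was 0, but 2 with the array median, 2 with slide as a random block, 2 with array weights, 1 with normexp, 1 with the authors' values, 1 with trend and robust variance, and 0 to 1 on leaving out 1 array. Members at an unadjusted p under 0.05 numbered 1, but 2 with normexp and 2 with the authors' values (Magi3 added), 0 with a filter on all 6 arrays, which drops Cldn22, 6 on day 2 alone (12.8% of members, where 19.1% of all genes were called), 9 with array weights, which gave wild type 12 a weight of 10.1 (19.1% of members, 20.8% of all genes), and 1 to 4 on leaving out 1 array (4 without knockout 12, 8.51% of members and 4.29% of all genes). Cldn22 kept its direction in all 19 alternatives that measured it, between -3.50 and -1.28. These alternatives reuse the same arrays and keep a probe that the wild-type arrays alone carried past the filter, so they are not separate support. Among the differences that turned sign were Cldn1 (-0.58) and Cldn4 (-0.47) without knockout 12, and Cldn15 (0.61) on day 2 alone. On leaving out 1 array, Cldn1 and Cldn4 ranged up to 0.70 and 0.30. Both genes were picked out for knockout 12 after their values were seen, so leaving it out is no test of them. The cause of the turns in sign was not tested. At any p, 41 of 47 members turned sign under at least 1 alternative and 6 did not, and 152 of 936 recomputed member differences had the other sign. With the replicate block (numbers 11 and 12 shared by both groups, 1 residual degree of freedom) 0 genes and 0 members passed. There 1 member had an unadjusted p under 0.05, and the members' median was -0.06. Same-numbered arrays correlated at -0.25 (number 11) and 0.42 (number 12) in their deviations. Wild type 11 with knockout 12 gave 0.57, and wild type 12 with knockout 11 gave -0.20. The positive pairs were both scanned on day 2, so these values cannot decide whether samples were paired, and the labels do not say. Between scan days 2225 genes and 5 members passed, but 3658 and 10 with the array median, 3362 and 8 without the genotype term, and 623 to 2462 genes and 1 to 5 members on leaving out 1 array (1 without knockout 12). By genotype the calls at an unadjusted p were 31.1% higher, but 61.4% on day 2 alone and 61.8% with array weights.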
